A study of Mus musculus with 12 samples.

Results

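NIH-3T3 cells, an immortalised fibroblast line from embryos of the NIH/Swiss mouse, were given SHHN, the amino-terminal signalling fragment of the secreted protein Sonic hedgehog. Their RNA was compared with that of cells given vehicle, across all genes. The comparison used 6 of the 12 libraries of the series, 3 from cells with 1 µg/ml recombinant SHHN and 3 from control cells, and took every gene that passed the filter on low values. Wells of both groups were at 85% confluence when treatment began, and both then spent 48 h in medium with only 0.5% fetal bovine serum, so the controls were in low serum too. The other 6 libraries came from MLg, a fibroblast line from newborn lung of the ddY mouse, with 3 libraries for each of the same treatments. They entered only where the response of NIH-3T3 was tested against that of MLg. NIH-3T3 is a single established line with no transgene named, and the labels do not say whether replicates were separate cultures. The p-values therefore measure only the spread between these libraries, which may be technical.

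Hedgehog ligands act on cells that carry the receptor Patched. Without ligand, Patched keeps the membrane protein Smoothened out of the primary cilium, and the Gli transcription factors are held by Sufu or cut into repressors. Ligand releases Smoothened, full-length Gli proteins reach the nucleus, and Gli1 and Ptch1 are transcribed, so that the pathway raises its own receptor. In embryos this signal passes from epithelium to the mesenchyme beneath it, and NIH-3T3 cells are a standard test system for it because they have cilia and respond to the ligand.

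Expression was deposited as FPKM, in which the fragments of a gene are divided by its transcript length and by library size. Totals of FPKM per library ranged from 494531 to 659862, and between 13401 and 14478 genes were above 0. Across genes, themselves no replicates of one another, Spearman correlations between libraries were 0.969 to 0.976 within a group and 0.958 to 0.963 between control and SHHN libraries. Fibroblast genes marked the line as labelled, with 17 of 18 fibroblast markers passing the filter. The leukocyte markers Adgre1, Itgam, Cd3e and Tyrobp and the epithelial markers Epcam, Krt5, Krt18 and Cldn4 were listed at 0 in all 6 libraries. Genes coding for ribosomal proteins held 27.1% to 34.0% of all FPKM in the control libraries and 21.8% to 26.1% in the SHHN libraries. This share counts Rps27 but not its near-identical copy Rps27rt. Rps27rt was at 152 to 3601 FPKM in control and at 4612 to 7295 with SHHN. The part of the ribosomal share in the results below was not tested.

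Of 24346 genes, 11677 reached 0.5 FPKM in at least 3 of the 6 libraries and were tested. With SHHN, 1614 genes were higher (13.8% of those tested) and 1280 were lower (11%), at a Benjamini-Hochberg adjusted p below 0.05 in limma. At least 2-fold changes made up 796 of the higher genes (6.82%) and 432 of the lower genes (3.7%). The median log2 fold change over all tested genes was −0.02. Leaving out SHHN replicate 2 left 772 genes lower, and leaving out control replicate 3 left 809. Fold changes here are differences of log2(FPKM + 0.5), which understates changes where values are low. In RNA from whole cultures, a change in the share of cells that express a gene and a change in RNA per cell cannot be told apart.

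**Figure D1:**
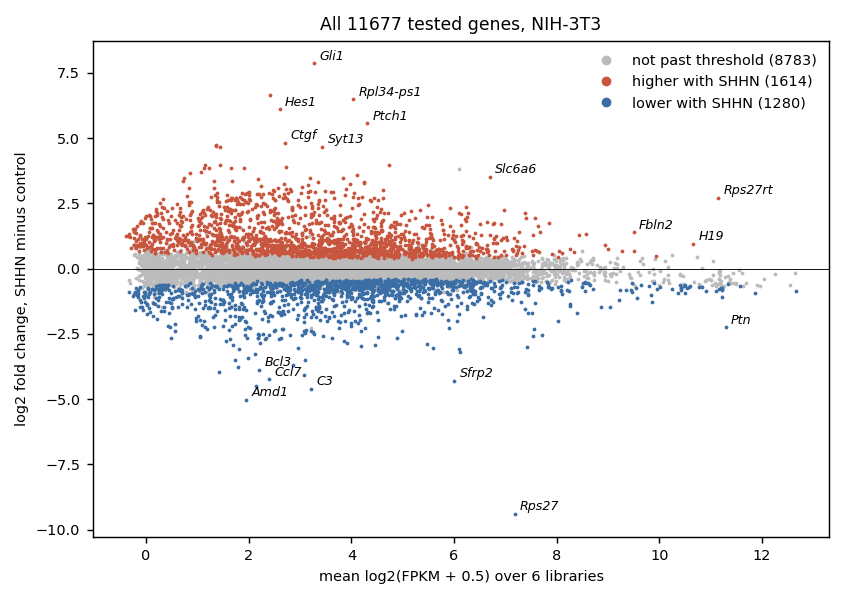
Log2 fold change with SHHN (vertical axis) against mean log2(FPKM + 0.5) over the 6 NIH-3T3 libraries (horizontal axis) for the 11677 tested genes, 1 point per gene. Red points are the 1614 genes higher with SHHN, blue points the 1280 genes lower, grey points the rest. Gli1, Hes1 and Ptch1 lie near the top, C3 and Sfrp2 near the bottom, and Rps27 and Amd1, whose values depend on near-identical copies, are also labelled, as is the pseudogene Rpl34-ps1.

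Some of the most extreme values came from genes with near-identical copies, between which fragments can be split. Rps27, which codes for a ribosomal protein, was listed at 1619, 7184 and 4576 FPKM in the control libraries and at 5.59, 4.20 and 5.54 with SHHN. Its retrotransposed copy Rps27rt was at 3601, 152 and 1248 FPKM in control and at 7295, 4612 and 5680 with SHHN, so that the lowest library of one was the highest of the other among controls. Of the 50-base stretches of Rps27rt, 91.1% also occur in Rps27. The sum of both copies was 5220, 7337 and 5824 FPKM in control and 7301, 4616 and 5686 with SHHN, which overlap (log2 fold change −0.07, SE 0.25, adjusted p = 0.864). The sum of Amd1 and Amd2, which code for an enzyme of polyamine synthesis, likewise did not pass (0.19, SE 0.17, adjusted p = 0.472), although Amd1 alone stood at −5.03. Sums for Prl2c2 and its copies, which code for proliferin hormones, passed and ran from 25.2 to 38.5 FPKM in control and from 0.392 to 0.839 with SHHN. Rnaset2a and Rnaset2b, 2 copies of a lysosomal ribonuclease gene, summed to 15.7 to 17.4 FPKM in control and 9.73 to 11.4 with SHHN (−0.61, SE 0.14, adjusted p = 0.00957). Values of the single copies are not read as results here.

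The Hedgehog pathway genes themselves were taken by role, and the highest rises of the whole table were among them. Of 38 listed pathway genes in the table, 28 were tested, 7 rose and 4 fell, beside 13.8% higher and 11% lower among all tested genes. The median log2 fold change was 0.11, beside −0.02 for all tested genes. Gli1 and Ptch1, the usual markers of the response, rose by far more than any regulator of Gli proteins. Leaving out any library but control replicate 2 left 2 of the 4 falls.

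The Gli factors carry the signal to DNA. Gli1, an activator that is itself a target, was at 0.129, 0.0840 and 0.179 FPKM in control and at 151, 150 and 139 FPKM with SHHN. Gli1 was thus near 0 in every control library and among the well expressed genes in every treated one (log2 fold change 7.87, SE 0.14, adjusted p = 7.95e-10). In mm10 the gene lies at chr10:127329882-127341974 on the minus strand. Gli2, the main activator upstream of Gli1, was at 9.09, 6.77 and 7.64 FPKM in control and at 52.5, 57.9 and 43.4 with SHHN. The libraries of Gli2 did not overlap, and the log2 fold change was 2.63 (SE 0.16, adjusted p = 2.22e-06). Gli3, mostly a repressor, was at 17.0, 9.80 and 17.1 FPKM in control and at 8.61, 9.83 and 7.42 with SHHN. Control replicate 2 of Gli3 lay within the range of the SHHN libraries (−0.70, SE 0.22, adjusted p = 0.042). The call for Gli3 was lost without any library but control replicate 2, with adjusted p from 0.0666 (without SHHN replicate 2) to 0.158 (without control replicate 3).

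Receptors and co-receptors moved in both directions. Ptch1, the main receptor, was at 2.27, 2.24 and 2.65 FPKM in control and at 139, 160 and 114 with SHHN (5.57, SE 0.16, adjusted p = 2.57e-08). The treated libraries of Ptch1 thus lay far above the control range. Smo, which codes for the signal transducer Smoothened, was at 159, 106 and 101 FPKM in control and at 325, 297 and 255 with SHHN (1.28, SE 0.19, adjusted p = 7.36e-04).

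Co-receptors that help Patched to bind the ligand went the other way. Gas1, a GPI-anchored co-receptor, was at 444, 599 and 471 FPKM in control and at 166, 208 and 181 with SHHN (−1.44, SE 0.17, adjusted p = 1.31e-04). Cdon stood at 44.8, 31.8 and 49.6 FPKM in control and at 23.3, 29.9 and 28.3 with SHHN (−0.61, adjusted p = 0.0359). The call for Cdon was lost without any library but control replicate 2, at adjusted p from 0.066 (without SHHN replicate 2) to 0.137 (without control replicate 3), whereas that for Gas1 was kept without each. The related co-receptor Boc did not pass (−0.28, adjusted p = 0.211), and its libraries overlapped. Hhip, a decoy receptor that is a target in many tissues, was listed at 0 in 5 libraries and at 0.00823 FPKM in SHHN replicate 2, so it was not tested.

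No ligand gene reached the filter, while 2 genes of ligand processing changed. Shh, Ihh and Dhh were not tested, and Shh was listed at 0 in all 6 libraries. Hhat, the acyltransferase that attaches palmitate to Hedgehog ligands, was at 3.87, 3.31 and 3.10 FPKM in control and at 22.2, 22.5 and 20.7 with SHHN (2.51, SE 0.15, adjusted p = 1.82e-06). Disp1, which releases lipid-bearing ligand from the cell, was at 9.98, 10.6 and 8.84 FPKM in control and at 3.62, 6.09 and 4.85 with SHHN (−0.97, SE 0.19, adjusted p = 0.0043). The enzyme of ligand maturation thus rose and the exporter fell in the same libraries.

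Regulators that sit between Smoothened and Gli changed little. Of 17 tested, 16 did not pass, among them Sufu (0.24, adjusted p = 0.238), which holds Gli proteins in the cytoplasm, the ubiquitin ligase adaptor Spop (−0.14) and the ciliary receptor Gpr161 (0.27, from −0.18 to 0.63 when a library was left out). Kif7, a kinesin of the cilium tip, was at 5.23, 5.58 and 4.52 FPKM in control and at 7.40, 8.94 and 7.67 with SHHN (0.60, SE 0.16, adjusted p = 0.0191). Its call was lost without SHHN replicate 2 (adjusted p = 0.108), without control replicate 3 (0.0741) and with transcript length and GC content corrected (0.0685). Primary cilium genes, a list of 41 that all passed the filter, had 2 higher and 4 lower, with a median of −0.16. Neither share is above that among all tested genes (13.8% higher and 11% lower). Ift81, part of the intraflagellar transport complex, fell by 0.88 on the log2 scale (SE 0.17, adjusted p = 0.00338), and the small GTPase Arl6 rose by 0.78 (adjusted p = 0.00809). The count of lower cilium genes was 1 without SHHN replicate 2 and 8 without control replicate 2.

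**Figure D2:**
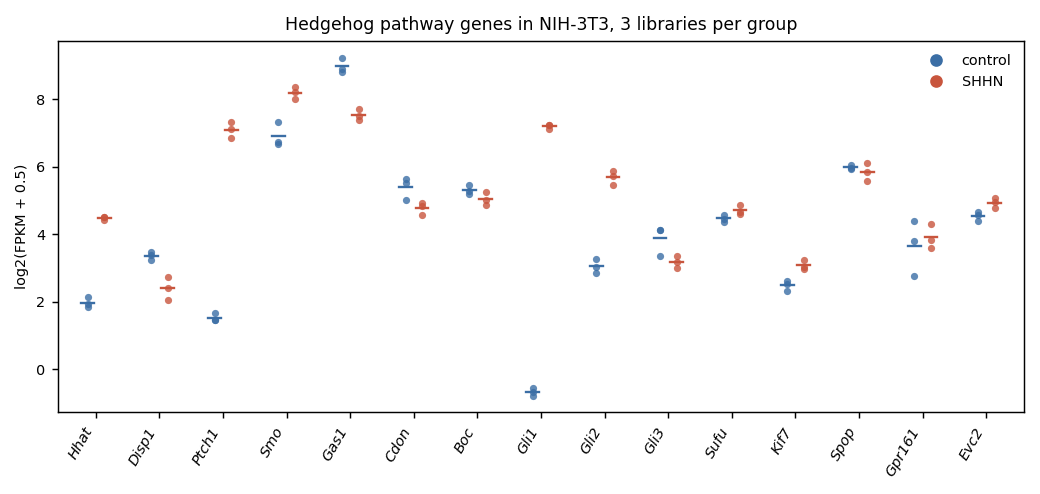
Log2(FPKM + 0.5) of 15 Hedgehog pathway genes in the 3 control (blue) and 3 SHHN (red) libraries, 1 point per library, with the group mean as a bar. Gli1, Ptch1, Gli2 and Hhat separate widely, Gas1 and Disp1 fall, and Sufu, Spop, Gpr161 and Evc2 did not pass the test.

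Genes known as Hedgehog targets in other cells were taken as a list of 30, of which 24 were tested, 14 rose and 6 fell (median 1.34). Among all tested genes 13.8% rose and 11% fell. Hes1, a repressor of the bHLH family best known from Notch signalling, was at 0.162, 0.0477 and 0.588 FPKM in control and at 67.5, 40.5 and 45.2 with SHHN (6.10, SE 0.27, adjusted p = 6.12e-07). It lies at chr16:30064384-30067796 on the plus strand of mm10. Sox18, a Sox factor of endothelium, went from at most 0.139 FPKM in control to 9.59, 7.30 and 6.84 (3.86, SE 0.20). Rasl11b, a small GTPase of the Ras family, was at 4.22, 5.98 and 6.87 FPKM in control and at 53.6, 58.8 and 66.1 with SHHN (3.30, SE 0.18). The control libraries of these genes did not overlap with the treated ones, as for 41.4% of all tested genes.

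Further targets rose by less. Mycn, a Myc factor of proliferating progenitors, was at 2.01, 1.72 and 1.62 FPKM in control and at 14.2, 16.3 and 15.8 with SHHN (2.80, SE 0.16). Ccnd1, the cyclin of early G1, was at 22.9, 21.1 and 26.3 FPKM in control and at 53.8, 79.7 and 85.0 with SHHN (1.59). The survival factor Bcl2 was at 2.74, 1.99 and 2.80 FPKM in control and at 8.74, 8.32 and 8.68 with SHHN (1.60). Among forkhead and nuclear receptor genes of mesenchyme, Foxc2 (1.73), Nr2f2 (1.70) and Foxl1 (1.64) rose, as did Sox9 (1.08), a factor of cartilage progenitors.

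Falls among the listed targets were led by Osr1, a zinc-finger factor of intermediate mesoderm, at 354, 486 and 422 FPKM in control and at 61.2, 100 and 95.4 with SHHN (−2.31, SE 0.21, adjusted p = 2.2e-05). Its relative Osr2 (−1.11), the epithelial-to-mesenchymal factor Snai1 (−1.26) and the nuclear receptor Nr2f1 (−1.19) fell too, the last against its relative Nr2f2. Smaller changes of Foxf2 (0.72), Pax9 (−0.75) and Ccnd2 (−0.70) lost their calls when single libraries were left out. Adjusted p for Foxf2 was then 0.0839 (SHHN replicate 1), 0.0585 (SHHN replicate 2), 0.055 (control replicate 1) and 0.104 (control replicate 3). For Pax9 it was 0.0513 to 0.0836 and for Ccnd2 0.0564 to 0.0853 without any library but control replicate 2. Cdk6, Foxf1, Sfrp1 and Igf2 did not pass.

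The 15 genes with the highest fold changes and at least 5 FPKM with SHHN included Gli1, Hes1, Ptch1 and Sox18 and 10 genes outside the lists above. Ctgf, a secreted matricellular protein, was at 0.569, 0.816 and 0.831 FPKM in control and at 54.3, 26.0 and 28.1 with SHHN (4.81, SE 0.26). Pgf, placental growth factor, a ligand of the VEGF receptor Flt1, was at 0, 0.0579 and 0.0558 FPKM in control and at 23.1, 9.60 and 10.4 with SHHN (4.68, SE 0.30). SHHN replicate 1 stood above the other SHHN libraries for both, and also for Tspan33, a tetraspanin (19.2 against 8.34 and 9.58 FPKM). Syt13, an atypical synaptotagmin of vesicle traffic, was at 1.33, 1.81 and 1.82 FPKM in control and at 40.0, 66.2 and 59.2 with SHHN (4.67, SE 0.20).

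Of the remaining strong rises, Sertad4 had the highest level with SHHN, at 117, 106 and 95.7 FPKM from 6.02, 5.91 and 6.87 in control (3.97, SE 0.14). Mxd3, a partner of Max in the Myc network, was at 0.987, 1.5 and 1.23 FPKM in control and at 22.9, 25.2 and 27.3 with SHHN (3.89, SE 0.17). Hsd11b1, the enzyme that regenerates active glucocorticoid, was listed at 0.197, 0 and 0 FPKM in control and at 8.27, 7.92 and 8.73 with SHHN. Lrrc8d, a subunit of volume-regulated anion channels, was at 0.755, 0.153 and 0.684 FPKM in control and at 13.5, 14.5 and 13.2 with SHHN (3.84, SE 0.25). The rule that picked these genes required groups without overlap, which 41.4% of all tested genes had. Lypd2, a GPI-anchored protein of the Ly6 family, was listed at 0 in each control library and at 10.8, 11.3 and 16.4 FPKM with SHHN.

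With predicted genes and pseudogenes left out, 12 genes were nearly absent from control and present with SHHN, and 0 showed the reverse. The rule was at most 0.1 FPKM in all 3 libraries of one group and at least 1 FPKM in all 3 of the other. They included Pgf and Lypd2. Edn2, an endothelin, was at 0.0536, 0 and 0 FPKM in control and at 4.32, 4.93 and 5.22 with SHHN. Wfdc1, a secreted protein with a WAP domain, was listed at 0 in each control library and at 2.60, 6.63 and 7.35 FPKM with SHHN. E2f2, an activator of S-phase genes, was at 0.0521, 0.0849 and 0.0594 FPKM in control and at 2.13, 1.57 and 1.62 with SHHN.

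**Figure D3:**
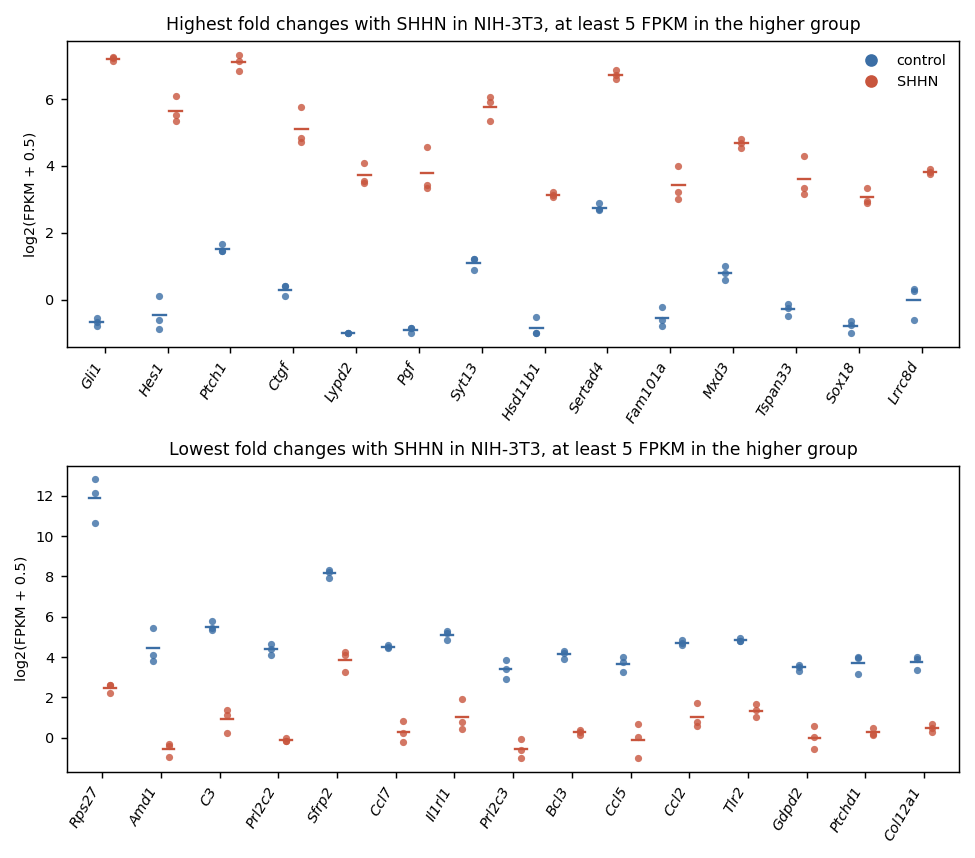
Log2(FPKM + 0.5) per library of 14 of the 15 genes with the highest (upper panel) and the 15 with the lowest (lower panel) fold change among genes past the threshold with at least 5 FPKM in the higher group and no overlap, control in blue and SHHN in red, with group means as bars. SHHN replicate 1 lies above the other SHHN libraries for Ctgf, Pgf and Tspan33, and Rps27 and Amd1 are genes whose single-copy values are uncertain.

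Proliferation genes rose almost as a whole with SHHN. All 26 tested mitotic kinases, cyclins and checkpoint genes rose (median 2.69), and so did all 37 tested kinetochore, condensin and spindle genes (median 2.62). Of 34 replication licensing and fork genes, 32 rose and 0 fell (median 1.74), with Orc6 and Gins4 not past the threshold. The background was 13.8% of all tested genes higher, with a median of −0.02. These counts were the same without each of the 6 libraries.

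Log2 fold changes ran from 0.76 to 3.26 in the mitotic list and from 1.14 to 3.26 in the kinetochore list, and the members given here are those with the smallest p. Aurkb, the kinase of the chromosomal passenger complex, was at 2.54, 1.77 and 2.58 FPKM in control and at 23.7, 22.9 and 24.2 with SHHN (3.12, SE 0.17, adjusted p = 1.31e-06). Cdc20, which activates the anaphase-promoting complex, was at 9.49, 8.35 and 6.86 FPKM in control and at 63.5, 67.9 and 75.0 with SHHN (3, SE 0.15). Ube2c, the ubiquitin carrier of that complex, rose by 2.72 (SE 0.15). Control libraries were not at 0 for these genes. The treated libraries of Ube2c were at 59.0, 55.1 and 73.3 FPKM, a wider spread than for Aurkb.

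By role, the median log2 fold change was 2.86 for 13 mitotic kinases and cyclins, 2.32 for 13 checkpoint and exit genes, 2.48 for 15 kinetochore and centromere genes, 2.83 for 15 spindle and cytokinesis genes and 1.94 for 7 condensin and topoisomerase genes. Racgap1, of the central spindle, was at 5.93, 6.35 and 6.95 FPKM in control and at 45.5, 42.3 and 45.1 with SHHN (2.70, SE 0.13). The condensin subunit Ncapd2 (2.94, SE 0.15) and Tpx2, which activates Aurora A on the spindle (2.73, SE 0.14), rose alike.

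S-phase genes rose by less than mitotic genes in the median. Mcm5, a subunit of the replicative helicase, was at 6.96, 5.13 and 5.53 FPKM in control and at 42.7, 40.9 and 43.0 with SHHN (2.75, SE 0.15). Uhrf1, which guides maintenance DNA methylation, was at 10.1, 8.58 and 7.62 FPKM in control and at 67.7, 53.6 and 51.0 with SHHN (2.64, SE 0.16). Pola2, of the polymerase alpha-primase complex, rose by 2.11 (SE 0.14). Among all tested genes 13.8% rose and 11% fell, while in nucleotide synthesis 11 of 17 rose and 0 fell (median 1.01). They were led by the thymidine kinase Tk1, at 4.21, 5.66 and 4.24 FPKM in control and 40.5, 40.0 and 47.0 with SHHN (3.05), and by Rrm2, the small subunit of ribonucleotide reductase (2.91).

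Genes that govern entry into the cycle were more mixed. Of 30 tested G1 cyclins, E2F factors, pocket proteins, CDK inhibitors and Myc network genes, 14 rose and 1 fell (median 0.54), the latter Ccnd2. The shares over all tested genes were 13.8% higher and 11% lower. The call for Ccnd2 was lost without any library but control replicate 2. The repressor E2f8 was at 0.865, 0.595 and 1.10 FPKM in control and at 7.86, 7.09 and 8.11 with SHHN (2.61, SE 0.19). Of 4 tested CDK inhibitors 1 rose, and Cdkn1a and Cdkn1b did not pass.

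Promoters of the cycle genes are shown because the phases of the cycle are known to differ in promoter elements: mitotic promoters carry the cell cycle homology element and CCAAT boxes, bound by the MuvB complex and by NF-Y, while S-phase promoters carry E2F sites. Of the tested genes, 76.4% had a promoter in the RefSeq table (GRCm38.p6), which spans 250 bases before to 50 bases after the start. Both strands were searched for each motif, and matches may overlap. The 160 bases before the start are printed for each gene, 5′ to 3′ on the strand of the gene. For the mitotic genes Cdk1 (chr10:69352913-69353072, minus strand) and Cdc20 (chr4:118437344-118437503, minus strand), capitals mark TTTGAA, the letters searched for the cell cycle homology element, and CCAAT or its reverse complement.
Cdk1: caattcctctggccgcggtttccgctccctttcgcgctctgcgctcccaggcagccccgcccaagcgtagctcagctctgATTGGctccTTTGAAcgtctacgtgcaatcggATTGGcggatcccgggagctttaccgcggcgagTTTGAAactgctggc
Cdc20: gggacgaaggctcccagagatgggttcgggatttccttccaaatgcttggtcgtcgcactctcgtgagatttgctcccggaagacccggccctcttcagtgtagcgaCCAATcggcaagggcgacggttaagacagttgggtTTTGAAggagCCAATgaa

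For the S-phase genes Mcm6 (chr1:128359706-128359865, minus strand), a helicase subunit, and Cdc6 (chr11:98907991-98908150, plus strand), which loads the helicase, capitals mark the E2F letters TTTCCCGC or TTTGGCGC on either strand and, in Mcm6, CCAAT on the other strand.
Mcm6: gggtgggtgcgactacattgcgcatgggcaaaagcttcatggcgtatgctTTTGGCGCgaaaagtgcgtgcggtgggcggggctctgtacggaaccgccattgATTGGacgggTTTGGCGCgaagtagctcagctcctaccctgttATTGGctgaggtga
Cdc6: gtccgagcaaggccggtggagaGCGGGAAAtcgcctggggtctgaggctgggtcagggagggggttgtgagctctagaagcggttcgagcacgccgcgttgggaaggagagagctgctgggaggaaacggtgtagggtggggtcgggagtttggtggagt

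Across the lists, TTTGAA occurred in 31 of the 51 mitotic and kinetochore promoters in the table (60.8%), in 6 of 29 replication promoters (20.7%) and in 13.8% of the promoters of all 8922 tested genes with an entry. CCAAT occurred in 70.6% of the mitotic and kinetochore promoters, 62.1% of the replication promoters and 43.7% of all tested. The E2F letters occurred in 12 of 29 replication promoters (41.4%), in 4 of 51 mitotic and kinetochore promoters (7.84%) and in 3.62% of all tested. CCAAT was thus frequent in both groups of promoters, TTTGAA had its highest share in the mitotic and kinetochore lists, and the E2F letters had theirs in the replication list. The differences between these shares were not tested. A match is a match of letters and was not tested as a site.

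The 4 promoter examples were picked for their motifs after the values were seen, and all 4 rose. Cdk1, the kinase of mitotic entry, had the lowest fold change of the 13 mitotic kinases and cyclins and was at 7.09, 8.06 and 7.16 FPKM in control and at 27.0, 22.7 and 32.3 with SHHN (1.80, SE 0.16, adjusted p = 2.22e-05). Mcm6 was at 15.5, 15.2 and 14.9 FPKM in control and at 56.1, 51.3 and 54.7 with SHHN (1.80, SE 0.12, adjusted p = 3.95e-06). Cdc6 was at 0.824, 0.680 and 0.793 FPKM in control and at 6.59, 5.58 and 6.06 with SHHN (2.38, SE 0.17, adjusted p = 4.72e-06). A search for the Gli letters GACCACCCA found 0 of the 11 Hedgehog target promoters with an entry and 0.314% of all tested. That says only that these letters are not in those windows.

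Genes of inflammation fell with SHHN. Of 12 tested chemokines 6 fell and 0 rose (median −1.46), of 19 cytokines and innate receptors 12 fell and 1 rose (median −0.76), and of 14 complement and acute phase genes 9 fell and 1 rose (median −1.23), beside 11% lower among all tested genes. Many members were not tested because they were near 0 throughout: 11 of 23 chemokines, 12 of 31 cytokines and receptors and 11 of 25 complement genes.

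Chemokines attract leukocytes. Ccl7 was at 22.3, 21.7 and 23.4 FPKM in control and at 1.25, 0.356 and 0.688 with SHHN (−4.24, SE 0.24, adjusted p = 1.55e-06). Ccl2, its neighbour on chromosome 11, was at 25.5, 28.4 and 23.8 FPKM in control and at 2.80, 0.990 and 1.19 with SHHN (−3.70, SE 0.27), and Ccl5 was at 13.1, 15.4 and 9.08 FPKM in control and at 1.08, 0 and 0.520 with SHHN (−3.77, SE 0.37). In each of the 3, the control libraries lay well above the treated ones.

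Most of the tested members of that cytokine list were receptors. Of 16 tested receptors 11 fell, and of 3 tested cytokines 1 fell, beside 11% lower among all tested genes. Il1rl1, the receptor of interleukin 33, was at 36.6, 28.1 and 38.2 FPKM in control and at 3.28, 0.842 and 1.22 with SHHN (−4.07, SE 0.33). Tlr2, a receptor of bacterial lipoproteins, was at 27.3, 27.2 and 30.6 FPKM in control and at 1.5, 2.05 and 2.72 with SHHN (−3.50, SE 0.19). Osmr, the receptor of oncostatin M, fell by 2.65 on the log2 scale (SE 0.19). Tnfsf9, a ligand of the TNF family, was the member that rose (0.83, SE 0.18, adjusted p = 0.00607).

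Complement C3, the central component of the cascade, was at 54.6, 39.4 and 42.5 FPKM in control and at 0.674, 2.07 and 1.68 with SHHN (−4.60, SE 0.27, adjusted p = 1.82e-06). The protease C1s1 was at 320, 319 and 343 FPKM in control and at 80.9, 106 and 120 with SHHN (−1.69, SE 0.16). Serping1, the inhibitor of that protease, went the other way, from 0.105, 0.178 and 0.135 FPKM in control to 3.20, 2.60 and 3.53 with SHHN (2.49, SE 0.19, adjusted p = 8.54e-06). The protease and its inhibitor thus changed in opposite directions.

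The NF-kB system drives many of these genes, and its own feedback genes are targets of it. Of 7 tested feedback inhibitors 5 fell, beside 11% lower among all tested genes. Of 6 genes listed as subunits or subunit-like 1 fell, which was Bcl3. Bcl3, an atypical inhibitor that also acts as a cofactor, was at 19.5, 17.8 and 14.4 FPKM in control and at 0.712, 0.597 and 0.805 with SHHN (−3.87, SE 0.18, adjusted p = 6.12e-07). Nfkbiz, a related nuclear protein, fell by 2.67 on the log2 scale (SE 0.18), and Nfkbia, the classical inhibitor, was at 23.3, 23.0 and 23.2 FPKM in control and at 9.29, 9.20 and 12 with SHHN (−1.16, SE 0.15, adjusted p = 2.42e-04). Rela, Nfkb1, Nfkb2, Relb and Rel did not pass the threshold.

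Promoters of Cxcl1, Cxcl10 and Nfkbia are shown because they hold the kappaB letters, GGGA followed by any 2 bases and TTCC, which were searched on both strands and are marked in capitals.
Cxcl1: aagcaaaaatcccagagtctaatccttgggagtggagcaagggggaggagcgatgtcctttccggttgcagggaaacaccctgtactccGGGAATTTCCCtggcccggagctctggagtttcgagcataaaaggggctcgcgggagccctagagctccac
Cxcl10: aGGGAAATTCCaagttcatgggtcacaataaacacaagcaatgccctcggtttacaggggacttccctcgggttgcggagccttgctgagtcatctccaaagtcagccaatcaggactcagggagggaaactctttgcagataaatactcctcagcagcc
Nfkbia: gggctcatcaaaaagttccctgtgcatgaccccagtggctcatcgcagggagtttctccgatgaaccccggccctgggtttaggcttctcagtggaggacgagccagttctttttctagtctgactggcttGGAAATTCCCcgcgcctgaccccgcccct

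These are the 160 bases before the start from RefSeq on GRCm38.p6, at chr5:90891085-90891244 (plus strand) for Cxcl1, chr5:92348890-92349049 (minus strand) for Cxcl10 and chr12:55492648-55492807 (minus strand) for Nfkbia. In Cxcl1 the capitals hold 2 overlapping matches. The letters occurred in 2 of 8 chemokine promoters and 2 of 10 promoters of the NF-kB list, beside 1.65% of all tested genes and 1.84% of the genes that fell. Cxcl10, chosen for its motif after the values were seen, was at 1.33, 0.679 and 1.05 FPKM in control and was listed at 0 in each SHHN library. Cxcl1 was at 0.552, 0.700 and 2.54 FPKM in control and at 0.111, 0.105 and 0 with SHHN (adjusted p = 0.0147). Its call was lost without SHHN replicate 3 (adjusted p = 0.0587).

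Interferon-stimulated genes fell in 11 of 24 tested, and 0 rose (median −0.54), beside 11% lower among all tested genes. Ifi44 was at 5.80, 3.11 and 5.31 FPKM in control and at 0.352, 0.213 and 0.497 with SHHN (−2.59, SE 0.25, adjusted p = 3.39e-05). The GTPase Ifi47 (−1.51) and Xaf1 (−1.11) fell by less. The count was 7 without SHHN replicate 1, 5 without SHHN replicate 2 and 7 without SHHN replicate 3.

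**Figure D4:**
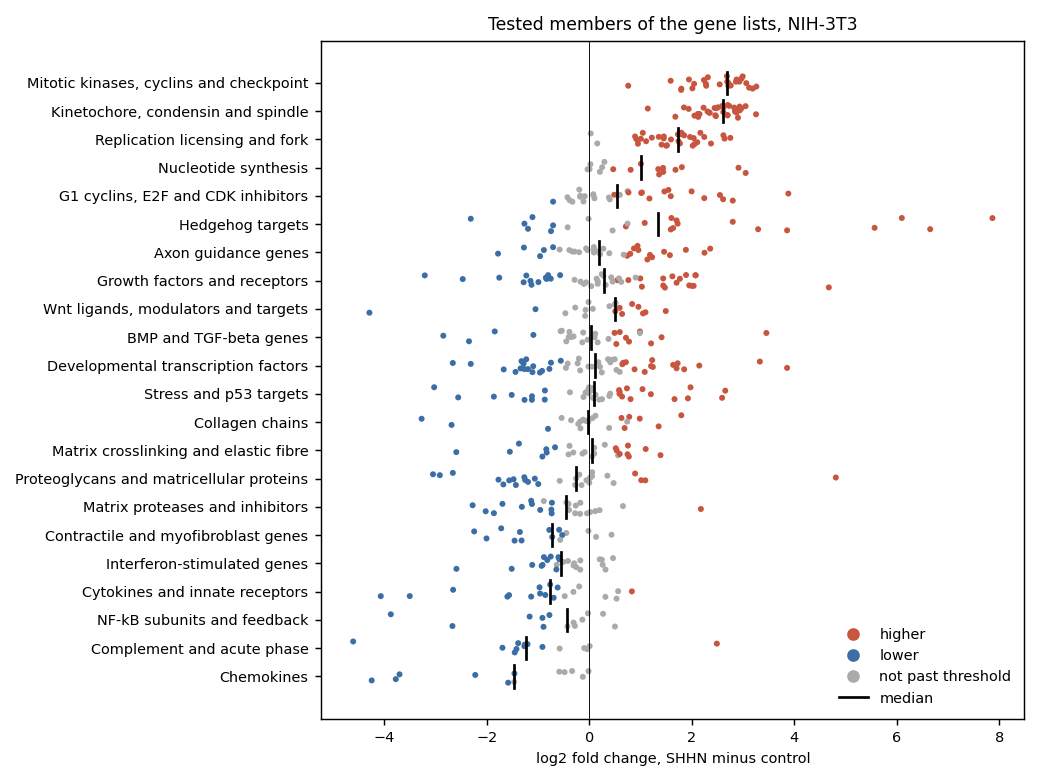
Log2 fold change with SHHN of each tested member of 22 gene lists, 1 point per gene, with the list's median as a black bar. Red members were higher, blue members lower and grey members not past the threshold. Mitotic and kinetochore genes lie wholly to the right with medians of 2.69 and 2.62, and chemokines lie to the left with a median of −1.46.

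Matrix genes were taken by class. Of 21 collagen chains 6 rose and 3 fell (median −0.02), beside 13.8% higher and 11% lower among all tested genes. Col12a1, a collagen on the surface of fibrils, was at 14.5, 9.75 and 15.3 FPKM in control and at 0.718, 1.08 and 0.904 with SHHN (−3.27, SE 0.21), and Col27a1 was at 7.80, 7.39 and 6.83 FPKM in control and at 0.732, 0.749 and 0.672 with SHHN (−2.69, SE 0.16). Col15a1, of the basement membrane zone, was at 6.89, 6.23 and 5.90 FPKM in control and at 17.4, 29.8 and 24.2 with SHHN (1.80, SE 0.19). Of the main fibrillar chains Col1a1 and Col3a1 did not pass. Col1a2 was at 3252, 2984 and 3163 FPKM in control and at 1526, 2122 and 1782 with SHHN (−0.80, SE 0.20, adjusted p = 0.0129). Its call was lost under several alternatives. Adjusted p was 0.315 with quantile normalization and 0.0536 to 0.0697 without SHHN replicate 1, SHHN replicate 3 or control replicate 3. The count of higher collagens was 3 without SHHN replicate 1 or without control replicate 3.

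Crosslinking and elastic fibre genes had 8 higher and 7 lower of 25 (median 0.05), beside 13.8% higher and 11% lower among all tested genes. Lox, the oxidase that crosslinks collagen and elastin, was at 531, 353 and 513 FPKM in control and at 50.8, 95.2 and 88.9 with SHHN (−2.59, SE 0.25, adjusted p = 3.42e-05). Its substrate Eln, elastin, was at 34.3, 28.2 and 28.6 FPKM in control and at 6.04, 16.6 and 14.5 with SHHN (−1.37, SE 0.31), with SHHN replicate 1 lowest. Fbln2, a fibulin, was at 454, 485 and 403 FPKM in control and at 1075, 1358 and 1100 with SHHN (1.39, SE 0.17). The count of higher genes was 5 without SHHN replicate 2 or without control replicate 3.

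Proteoglycans and matricellular proteins fell in 13 of 30 and rose in 4 (median −0.26), beside 11% lower and 13.8% higher among all tested genes. Thbs1, thrombospondin 1, was at 69.1, 47.4 and 64.8 FPKM in control and at 8.54, 7.80 and 6.27 with SHHN (−2.91, SE 0.18). Cemip, which takes part in hyaluronan breakdown, fell by 3.05 on the log2 scale (SE 0.21), while Cd44, a hyaluronan receptor, rose by 1.09 (SE 0.19, adjusted p = 0.00208). Of the matricellular genes Ctgf and Thbs3 (1.02) went up against the list.

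Proteases of the matrix and their inhibitors fell in 11 of 25, and Adamts15 alone rose (median −0.45), beside 11% lower among all tested genes. Mmp9, a gelatinase, was at 27.5, 33.8 and 27.0 FPKM in control and at 6.57, 4.90 and 5.62 with SHHN (−2.27, SE 0.16). Mmp19 fell by 2.02 on the log2 scale (SE 0.15). Adamts15, a protease of aggregating proteoglycans, was at 4.18, 4.01 and 3.90 FPKM in control and at 19.8, 21.4 and 18.9 with SHHN (2.18, SE 0.14). Without SHHN replicate 3, 2 members of the list were higher.

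Contractile and myofibroblast genes fell in 10 of 15, and 0 rose (median −0.72), beside 11% lower among all tested genes. Tpm1, tropomyosin 1, was at 298, 342 and 303 FPKM in control and at 77.4, 105 and 106 with SHHN (−1.72, SE 0.16). Lmod1, which nucleates actin in smooth muscle, was at 4.92, 6.01 and 4.09 FPKM in control and at 0.436, 0.892 and 0.668 with SHHN (−2.24, SE 0.22), and Fhl1, a LIM protein, fell by 1.35 (SE 0.20). Acta2, the usual marker of myofibroblasts, did not pass.

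Adhesion genes had 6 higher and 5 lower of 27 (median 0.003), beside 13.8% higher and 11% lower among all tested genes. Vcam1, which binds leukocyte integrins, was at 59.1, 48.6 and 62.0 FPKM in control and at 8.35, 8.41 and 9.87 with SHHN (−2.60, SE 0.15, adjusted p = 1.58e-06). The laminin chains moved apart, with Lama4 lower (−1.19, SE 0.14) and Lama2 higher (1.5, SE 0.20). Without control replicate 2, 8 members of the list were lower.

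Secreted growth factors changed in both directions. Of 46 tested growth factors and receptors 17 rose and 13 fell (median 0.30), beside 13.8% higher and 11% lower among all tested genes. Besides Pgf, the platelet-derived factor Pdgfc was at 5.80, 5.92 and 7.32 FPKM in control and at 32.9, 26.6 and 23.8 with SHHN (2.04, SE 0.17). Igfbp7, an IGF-binding protein, was at 89.2, 122 and 82.6 FPKM in control and at 410, 354 and 364 with SHHN (1.95, SE 0.17). Pappa, a protease that frees IGF from its binding proteins, was at 22.5, 13.2 and 25.2 FPKM in control and at 2.07, 4.92 and 2.93 with SHHN (−2.47, SE 0.30). Nrg1, a ligand of ErbB receptors, fell by 1.75 on the log2 scale (SE 0.17), and Spry2, a feedback inhibitor of receptor tyrosine kinases, by 1.15 (SE 0.13). Fgf10, a mesenchymal signal to epithelium, was at 41.6, 26.5 and 39.4 FPKM in control and at 12.6, 20.2 and 20.8 with SHHN (−0.99, SE 0.23, adjusted p = 0.00957).

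Angptl4, an inhibitor of lipoprotein lipase, was the growth factor gene whose treated libraries differed most from one another. It was at 213, 237 and 183 FPKM in control and at 4.56, 51.7 and 44.3 with SHHN, all below control but with SHHN replicate 1 far under the others (−3.21, SE 0.70, adjusted p = 0.0072). With robust variance estimates the adjusted p was 0.0751.

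Wnt genes had 8 higher and 2 lower of 19 (median 0.50), beside 13.8% higher and 11% lower among all tested genes. Sfrp2, a secreted Wnt modulator, was at 316, 298 and 243 FPKM in control and at 9.04, 18.4 and 16.7 with SHHN (−4.29, SE 0.24, adjusted p = 1.49e-06), against the direction of most members. Wnt2 was at 0.189, 0.519 and 0.402 FPKM in control and at 1.31, 2.43 and 2.17 with SHHN (1.49, SE 0.25), and the antagonist Dkk2 rose by 1.10 (SE 0.19). The count of higher Wnt genes was 5 without SHHN replicate 2.

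Genes of the BMP and TGF-beta family had 9 higher and 4 lower of 28 (median 0.04). The shares over all tested genes were 13.8% higher and 11% lower. Inhba, the subunit of activin A, was at 3.57, 3.76 and 4.15 FPKM in control and at 72.0, 39.9 and 35.9 with SHHN (3.46, SE 0.24, adjusted p = 3.68e-06). Fst, follistatin, which binds activin, was at 8.48, 15.2 and 13.2 FPKM in control and at 1.14, 1.46 and 1.11 with SHHN (−2.85, SE 0.22, adjusted p = 8.33e-06). The ligand subunit thus rose while its binding protein fell, in each library. Tgfbi, a TGF-beta-induced matrix protein, fell by 2.35 on the log2 scale (SE 0.18). The count of higher members was 5, 4 and 5 without SHHN replicates 1, 2 and 3 and 5 without control replicate 3.

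Axon guidance genes also act in mesenchyme and vessels. They rose in 13 of 34 and fell in 5 (median 0.19), beside 13.8% higher and 11% lower among all tested genes. Rgmb, a co-receptor of BMP and a ligand of neogenin, was at 65.1, 51.5 and 55.3 FPKM in control and at 311, 267 and 245 with SHHN (2.25, SE 0.15). Unc5b, a netrin receptor, was at 3.68, 2.78 and 2.77 FPKM in control and at 26.8, 16.4 and 12.6 with SHHN (2.36, SE 0.25), and the ephrin Efnb1 rose by 1.89 (SE 0.19). The 5 falls were Plxnd1 (−0.70), a semaphorin receptor, and 4 secreted class 3 semaphorins. Sema3a was at 38.8, 22.4 and 38.3 FPKM in control and at 10.8, 7.78 and 8.75 with SHHN (−1.78, SE 0.22), and Sema3b (−1.27), Sema3f (−0.88) and Sema3c (−0.96) changed by less. The call for Sema3c was lost without SHHN replicate 1 (adjusted p = 0.0638), control replicate 1 (0.0739) or control replicate 3 (0.0597).

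Of 7 tested Notch and Hes genes 3 rose and 0 fell (median 0.52), beside 13.8% higher among all tested genes. Beside Hes1, the ligand Jag1 was at 14.9, 12.8 and 17.1 FPKM in control and at 49.1, 46.7 and 47.6 with SHHN (1.66, SE 0.14). The modifier Lfng rose by 0.97 (SE 0.19), and the receptors Notch1 and Notch2 did not pass.

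Developmental transcription factors rose in 15 of 48 and fell in 17 (median 0.11), beside 13.8% higher and 11% lower among all tested genes. Foxd2, a forkhead factor, was at 6.5, 6.07 and 4.17 FPKM in control and at 63.2, 59.7 and 56.5 with SHHN (3.33, SE 0.17, adjusted p = 1.14e-06). Foxc1 was at 17.4, 15.1 and 12.9 FPKM in control and at 83.0, 65.6 and 58.4 with SHHN (2.15, SE 0.17). By family, 6 of 6 tested Sox genes and 6 of 10 Fox genes rose with 0 lower, whereas 3 of 32 T-box, homeobox and other genes rose and 17 fell. The call for Sox4 was lost without any library but control replicate 1, with adjusted p from 0.0654 (without SHHN replicate 1) to 0.151 (without SHHN replicate 2). Among the Sox genes Sox5 (1.23), Sox8 (1.85) and Sox12 (1.24) rose along with Sox9 and Sox18. Of 15 Hox genes 1 rose, Hoxa4 (1.08, adjusted p = 0.00486), with 2 higher without control replicate 2. The number of Hox genes lower was 3, a count that was 0 without SHHN replicate 1 and 1 without SHHN replicate 2, SHHN replicate 3 or control replicate 3.

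Immediate early genes, which respond within minutes to serum or stress, had 5 higher and 7 lower of 22 at 48 h (median −0.16), beside 13.8% higher and 11% lower among all tested genes. Fosl1, an AP-1 subunit, was at 2.94, 1.84 and 2.50 FPKM in control and at 0.301, 0.0265 and 0.0742 with SHHN (−2.21, SE 0.24). Egr2, a zinc-finger factor, was at 1.07, 0.791 and 0.602 FPKM in control and at 10.7, 2.89 and 3 with SHHN (1.97, SE 0.40, adjusted p = 0.00514), with SHHN replicate 1 above the others. The count of higher genes was 3 without SHHN replicate 1, control replicate 1 or control replicate 3.

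Stress genes and p53 targets changed in both directions, beside 13.8% higher and 11% lower among all tested genes. Of 21 stress genes 6 rose and 8 fell, and of 15 p53 targets 7 rose and 1 fell. The kinases Plk3 (2.59, SE 0.18) and Plk2 (1.66, SE 0.12) rose, Plk2 from 26.0, 25.9 and 24.0 FPKM in control to 81.7, 79.4 and 82.8 with SHHN, while Cdkn1a did not pass. Trib3 and Chac1, both targets of the amino acid response, fell by 2.56 (SE 0.21) and 1.86 (SE 0.17) on the log2 scale. Metallothionein Mt2 was at 71.5, 206 and 177 FPKM in control and at 15.1, 15.3 and 19.3 with SHHN (−3.02, SE 0.33), with control replicate 1 lowest among controls.

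For the 3 lists that follow, the shares over all tested genes were 13.8% higher and 11% lower. In glycolysis and hypoxia 9 of 26 rose and 3 fell (median 0.23). The falls were Adm, adrenomedullin, at 21.9, 33.5 and 25.1 FPKM in control and 2.06, 4.82 and 6.00 with SHHN (−2.59, SE 0.31), Ndrg1 (−1.35, SE 0.13) and the enolase Eno2 (−0.83). Without control replicate 2, 5 fell. Cholesterol and fatty acid synthesis had 2 higher and 0 lower of 29, with Fads2 at 0.67 (adjusted p = 0.00864), and the count was 1 without SHHN replicate 1, control replicate 1 or control replicate 3. Ribosome biogenesis factors had 1 higher and 1 lower of 23, the latter Npm1, nucleophosmin, at 847, 913 and 1012 FPKM in control and 538, 466 and 585 with SHHN (−0.81, SE 0.16, adjusted p = 0.00493). The 1 higher gene, Fbl, lost its call without any library but control replicate 2, without which 5 rose.

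Genes of prostaglandin, retinoid and glucocorticoid handling had 5 higher and 6 lower of 21 (median 0.12). The shares over all tested genes were 13.8% higher and 11% lower. Cyp26b1, which degrades retinoic acid, was at 3.26, 3.44 and 4.59 FPKM in control and at 15.2, 18.6 and 16.9 with SHHN (2.04, SE 0.17). Ptgs1, cyclooxygenase 1, was at 27.6, 27.0 and 31.1 FPKM in control and at 7.48, 9.46 and 9.85 with SHHN (−1.63, SE 0.15). Fkbp5 and Tsc22d3, both known targets of the glucocorticoid receptor, rose by 0.86 each (adjusted p = 0.00269 and 0.00112), in the same libraries as Hsd11b1. The count of lower genes was 3 without SHHN replicate 2 or control replicate 3.

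Ion channel and neuronal lists were mostly silent, with 24 of 36 and 24 of 37 members not tested. Cacna1g, a T-type calcium channel, was at 15.8, 14.8 and 14.2 FPKM in control and at 1.94, 2.23 and 1.77 with SHHN (−2.64, SE 0.15, adjusted p = 1.82e-06). The sodium pump subunit Atp1b1 fell by 2.26 on the log2 scale (SE 0.23). Among neuronal genes Syt13 and Cntnap1 (1.63, SE 0.18) rose, and the tubulin Tubb3 fell by 1.57 (SE 0.21).

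In absolute FPKM, the largest changes were in abundant secreted proteins and RNAs. Ptn, pleiotrophin, a heparin-binding growth factor, was at 5362, 5208 and 5853 FPKM in control and at 813, 1314 and 1409 with SHHN (−2.25, SE 0.24, adjusted p = 6.67e-05). H19, an imprinted long non-coding RNA, was at 1105, 1220 and 1157 FPKM in control and at 1588, 2521 and 2767 with SHHN (0.94, SE 0.23, adjusted p = 0.0124). Its call was lost without SHHN replicate 2 (adjusted p = 0.0503), SHHN replicate 3 (0.0618) or control replicate 3 (0.0614). Slc6a6, the taurine transporter, was at 31.8, 25.5 and 33.8 FPKM in control and at 241, 441 and 397 with SHHN (3.51, SE 0.22), with SHHN replicate 1 below the others. Smoc2, a matricellular protein, went from 220, 266 and 232 FPKM in control to 405, 746 and 713 with SHHN (1.33, SE 0.23). Of 16 tested imprinted genes 3 rose and 5 fell, beside 13.8% higher and 11% lower among all tested genes. Without SHHN replicate 2 or 3, 1 imprinted gene was higher. Mest, a hydrolase-like protein, rose by 1.82 (SE 0.19), and the non-coding RNA Meg3 was at 451, 513 and 490 FPKM in control and at 178, 189 and 208 with SHHN (−1.34, SE 0.14).

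Genes for ribosomal proteins, picked after their values were seen, had 35 of 81 lower and 0 higher (median −0.61). Among all tested genes 11% were lower and 13.8% higher. With quantile normalization 15 of the 81 were lower and 2 higher (median −0.15). With median-ratio scaling 30 were lower and 0 higher (median −0.60). With transcript length and GC content corrected 41 were lower and 0 higher (median −0.53). Both the count and the size were thus smaller with quantile normalization than with the other settings. The 81 include Rps27 as a single copy (−9.40) but not its copy Rps27rt, which was called higher (2.71). The sum of these 2 copies did not pass (adjusted p = 0.864).

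Fibroblast markers had 7 lower and 1 higher of 17 (median −0.57), beside 11% lower and 13.8% higher among all tested genes. Their summed level was 21059 to 22513 FPKM in control and 14815 to 16510 with SHHN. Postn, periostin, was at 965, 810 and 907 FPKM in control and at 350, 409 and 413 with SHHN (−1.19, SE 0.16), while Thy1, a surface glycoprotein, rose by 0.61 (SE 0.14). The count of lower markers was 4 without control replicate 3 and 4 with quantile normalization.

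Markers of other cell types were mostly near 0, and among all tested genes 13.8% were higher and 11% lower. Of 10 endothelial markers 3 were tested and 1 rose, Cdh5, the cadherin of endothelial junctions, from 0.103, 0.0507 and 0.0782 FPKM in control to 2.10, 13.9 and 11.1 with SHHN (3.72, SE 0.52, adjusted p = 4.51e-04). The summed endothelial level was 9.34 to 10.1 FPKM in control and 10.3 to 28.8 with SHHN, and 7 of the 10 were under 0.5 FPKM in all 6 libraries. Tnnt2, cardiac troponin T, was the only tested muscle marker and was at 0.332, 0.108 and 0.296 FPKM in control and at 4.32, 3.38 and 3.76 with SHHN (2.54, SE 0.20). The other 12 muscle markers stayed under 0.5 FPKM in all 6 libraries, with Myod1, Myog and Pax7 listed at 0. Among markers of cartilage and bone, Dmp1 (1.41) rose beside Sox9, and Ibsp, listed at 0 in each control library, was at 0.536, 1.32 and 1.55 FPKM with SHHN. Matn1 and Matn3 were listed at 0. Of 2 tested leukocyte markers 1 was lower, Aif1 (adjusted p = 0.0491, and 0.0607 to 0.193 without any library but control replicate 1), and Lpl, the 1 tested adipocyte marker, did not pass.

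Whether the response belonged to NIH-3T3 or was shared was tested as the difference between the SHHN effects in NIH-3T3 and MLg, in 1 fit of all 12 libraries. Of 12379 genes tested, 1662 differed (13.4%), 926 with the more positive effect in NIH-3T3 and 736 with the more negative. The count fell to 1093 without MLg SHHN replicate 3. Gli1 rose more in NIH-3T3 (difference 1.04, adjusted p = 0.00672), and the difference for Ptch1 did not pass (−0.58, adjusted p = 0.119). Hes1 rose by 6.10 in NIH-3T3 and by 2.98 in MLg, where it began at 1.42 ± 0.429 FPKM (SD, n = 3), a difference of 3.12 (SE 0.36, adjusted p = 9.37e-05).

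Further pathway genes that differed between the lines were Hhat, Gli2, Smo and Kif7. Hhat, up by 2.51 in NIH-3T3, stood in MLg at 8.81 ± 0.244 FPKM in control and 8.56 ± 0.814 with SHHN (SD, n = 3), a difference of 2.55 (SE 0.16, adjusted p = 1.16e-06). Smo, which rose in NIH-3T3, was at 202 ± 11.9 FPKM in MLg control and 181 ± 25.5 with SHHN (difference 1.44, SE 0.24, adjusted p = 0.00132). For Hhat and Smo the level in MLg control was above that in NIH-3T3 control. Gli2 rose in both lines, in MLg from 17.3 ± 1.74 to 42.0 ± 3.75 FPKM (SD, n = 3), and by more in NIH-3T3 (difference 1.38, SE 0.20, adjusted p = 5.32e-04). Kif7 gave a difference of 0.62 (adjusted p = 0.0411), a call that was lost under 11 of 18 alternatives with adjusted p up to 0.11. Among these, adjusted p was 0.11 without NIH-3T3 SHHN replicate 2 and 0.105 without MLg control replicate 2.

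Some strong changes in NIH-3T3 went with no passing change, or with the opposite change, in MLg. The counts that follow leave out predicted genes and pseudogenes. Any sign in MLg counted, even of a change near 0 such as that of Col12a1 (0.04, adjusted p = 0.91). Picking genes by the difference favours opposite signs, so the next count is not read as a result. Among genes that passed in NIH-3T3 without overlap and passed the test of the difference, a total not counted here, 497 had the opposite sign in MLg. Of these, 87 also passed in MLg. Cacna1g was 1 of these, lower in NIH-3T3 and, in MLg, higher with SHHN at 3.49 ± 0.414 FPKM from 1.11 ± 0.105 (SD, n = 3), a difference of −3.95 (SE 0.18, adjusted p = 7.24e-08). Foxd2 was at 7.97 ± 1.31 FPKM in MLg control, close to its level in NIH-3T3 control, and at 8.34 ± 3.48 with SHHN (difference 3.34, SE 0.36, adjusted p = 5.23e-05). Col12a1 was at 42.5 ± 8.55 and 43.2 ± 4.12 FPKM in MLg (difference −3.31, SE 0.26). For 3 genes the MLg level was near 0 in both groups: Sfrp2 at 0.0653 and 0.0305 FPKM, Tspan33 at 0.0866 and 0.0688, and Tlr2 at 0.196 and 0.0855.

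Ccl2, Ccl7, C3 and Bcl3 fell in both lines, and by more in NIH-3T3. Ccl2 was at 185 ± 24.2 FPKM in MLg control and 71.3 ± 4.05 with SHHN (difference −2.34, SE 0.32, adjusted p = 3.85e-04). Ccl7 gave a difference of −2.59 (adjusted p = 1.49e-04), C3 of −2.99 (4.14e-04) and Bcl3 of −2.03 (6.57e-05). MLg expressed more Ccl2, Ccl7 and C3 in control than NIH-3T3 did.

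**Figure D5:**
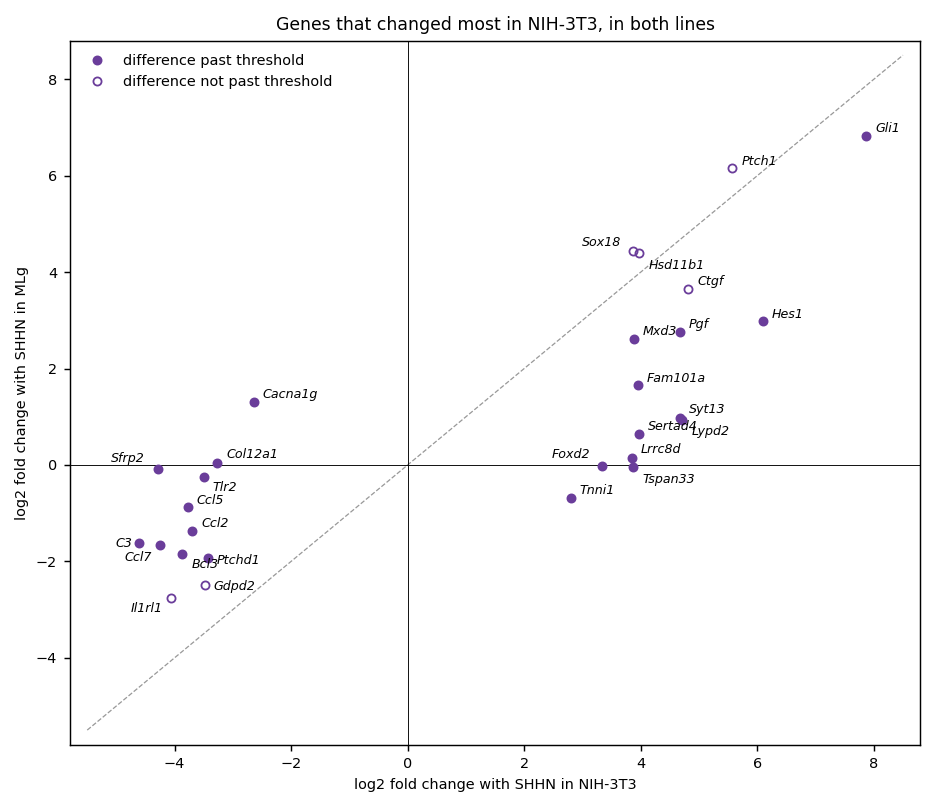
Log2 fold change with SHHN in MLg (vertical axis) against that in NIH-3T3 (horizontal axis) for genes among those with the highest and lowest fold changes in NIH-3T3 or with opposite sign in MLg, leaving out genes with near-identical copies. Filled points passed the test of the difference between lines and open points did not, and the dashed line marks equal effects. Cacna1g changed in opposite directions, while Foxd2, Col12a1, Sfrp2 and Tspan33 lie near 0 in MLg.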

How the data were processed

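RNA of 6 NIH-3T3 libraries was analysed, 3 with SHHN and 3 controls, as grouped by the labels. The deposited values are FPKM per gene. Per the submitters' processing notes, bcl2fastq, TopHat2 2.0.12, Cufflinks 2.2.1 and the genome mm10 were used; the annotation and the scaling between libraries are not given in the sources used here. Steps of whole reads were not found in low values, so depth is unknown and no count test was made. A row without values (1 in all) was left out. Values were tested as log2(FPKM + 0.5) with limma 3.58.1 (mean-variance trend, R 4.3.3) over genes with at least 0.5 FPKM in 3 libraries, with Benjamini-Hochberg adjustment over all of them and a threshold of 0.05; every adjusted p is from limma. The fit was tested on simulated data. The difference between lines was an interaction term over 12 libraries. Fits that left out a library kept the genes tested with all 6.

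Members and the 43 gene lists were chosen with earlier results of these data known. Genes were named by rule: all tested pathway and target genes; the 15 highest and 15 lowest fold changes with at least 5 FPKM in the higher group and no overlap; the 10 largest gains and losses of FPKM; up to 10 genes present in one group only; in each list the 3 smallest p and members against the majority; and the 8 largest differences of opposite sign between lines. Predicted genes were left out. A few genes are not reported here, although all counts include them. Genes outside the rule, such as those of the promoters shown or well-known members that did not pass, were chosen after their values were seen. Gene positions are from GENCODE M21 (GRCm38) and promoters from RefSeq. Alternatives were other pseudocounts, filters, scalings, variance estimates, a length and GC correction, a replicate block, summed copies and leaving out each library.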

Additional observations from a re-analysis of the deposited data

Results flagged for a closer look

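The genes here were among the strongest changes in NIH-3T3, or had the opposite sign in MLg, and passed limma's test of the difference between the SHHN effects of the 2 lines. Each value is the effect in NIH-3T3 minus that in MLg on the log2(FPKM + 0.5) scale. Of the Hedgehog genes, Gli1 gave 1.04 and Hes1 3.12, and both rose in MLg too. Among the other strong rises, the difference was 3.79 for Lypd2, 1.91 for Pgf, 3.70 for Syt13, 3.33 for Sertad4, 2.30 for Fam101a, 3.91 for Tspan33 and 3.71 for Lrrc8d. For Mxd3 it was 1.26 (adjusted p = 0.0381), a call that was lost in 11 of the alternatives with adjusted p from 0.0523 to 0.0911. Sertad4 started from a higher level in MLg control (30.0 FPKM) than in NIH-3T3 control, and Lypd2 was listed at 0 in MLg control.

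Among the falls, the difference was −2.99 for C3, −4.20 for Sfrp2, −2.59 for Ccl7, −2.34 for Ccl2, −2.90 for Ccl5, −2.03 for Bcl3, −3.26 for Tlr2, −1.49 for Ptchd1 and −3.31 for Col12a1. Genes with the opposite sign in MLg gave −3.95 for Cacna1g and 3.48 for Tnni1, the slow skeletal troponin I. Foxd2 gave 3.34, with a change near 0 in MLg.

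Genes with near-identical copies also met the criterion, with −13.95 for Rps27, −6.89 for Amd1, −4.83 for Rnaset2a, −1.95 for Prl2c2 and −1.54 for Prl2c3. With copies summed, the difference was 0.22 for Rps27 and Rps27rt (adjusted p = 0.673), −0.57 for Amd1 and Amd2 (0.0928), −0.75 for Rnaset2a and Rnaset2b (0.029) and −2.19 for the Prl2c copies (1.91e-04).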

How the results depend on the processing

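No named gene that passed the test turned direction under the alternatives in which it was fitted. Where copies were summed, genes with near-identical copies were not fitted singly. Amd1 alone was at −5.03 and its sum with Amd2 at 0.19. Rps27rt alone was at 2.71 and its sum with Rps27 at −0.07. Lists with similar numbers of higher and lower members did not keep the same balance under all alternatives. The median over all tested genes (−0.02) was 0.016 without SHHN replicate 1 and 0.015 without control replicate 3, and without NIH-3T3 control replicate 2 the genes that differed between lines were 1101 higher and 1244 lower. When limma was asked for a fold change above 2 rather than above 1, 337 genes were higher and 131 lower; members higher were then 9 Hedgehog targets, 18 replication, 4 nucleotide synthesis, 6 G1, 8 growth factor, 3 axon guidance, 5 developmental factor and 4 stress genes, and members lower 3 cytokine and receptor, 1 interferon-stimulated, 3 proteoglycan, 4 protease, 2 contractile, 2 growth factor and 3 developmental factor genes. This test asks for more than the main one. Leaving out each library gave 772 (without SHHN replicate 2) to 1749 (without control replicate 2) genes lower, 5 to 10 interferon-stimulated genes lower, and 1093 (without MLg SHHN replicate 3) to 2345 (without NIH-3T3 control replicate 2) genes that differed between lines; the cause was not tested. Quantile normalization gave 1565 higher and 1571 lower. Of 257 named genes, 25 lost their call without a filter and 9 to 33 when a library was left out. Deviations from group means had correlations over genes of −0.006, −0.098 and 0.037 for same-numbered libraries and −0.121 to 0.154 for differently numbered ones. Deviations in a group of 3 sum to 0, and the labels do not say how replicates were made. Whether numbers pair the libraries is therefore unknown. With a replicate block 1569 genes were higher and 1242 lower, and 1692 differed between lines. FPKM without counts gives no depth, so counting error could not be given.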
